A study of Mus musculus with 2 samples.

Results

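The long noncoding and small nucleolar RNA (snoRNA) host transcripts Meg3, Tug1, H19, Kcnq1ot1, Gas5, Snhg1, Snhg3, Snhg6, Snhg8 and Snhg12 were examined in C3H10 cells after knockdown of another noncoding RNA, MALAT1. They were chosen by name, as well-known noncoding transcripts other than Malat1 and Neat1, and make up 10 of the 46095 genes in the count table. All 10 were measured in both libraries and were among the 17356 genes tested. C3H10 is a mouse embryonic mesenchymal line that can form adipocytes, and the labels give its strain as C57BL/6. Cells of the ASO NC group received a negative control antisense oligonucleotide (ASO) and those of the ASO MALAT1 group an ASO against MALAT1, each at 100 nM with RNAiMAX. Both groups were returned to full medium after 8 h and grown to confluence. Adipogenesis was then induced with 0.5 mM IBMX, dexamethasone (5 mM as the labels write it), 0.5 mg/L troglitazone and 10 ng/mL insulin. Medium with insulin alone followed after 2 days, and the cells were at day 6 of differentiation by the study's text. Each group was 1 library of 1 cell line, and which ASO against MALAT1 was sequenced is not given in the sources used here. There were therefore no replicates, and every interval and p-value below covers counting error between these libraries only, not the spread between cultures.

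Noncoding transcripts of this kind act in different ways. Some, such as Kcnq1ot1, H19 and Meg3, belong to imprinted chromosome domains in which only the maternal or only the paternal copy is transcribed. Others carry snoRNAs in their introns. These small RNAs guide the methylation or pseudouridylation of other RNAs, while the spliced host transcript is usually unstable and is removed by nonsense-mediated decay. Several host genes begin transcription at a pyrimidine tract, the 5′ terminal oligopyrimidine (5′TOP) start they share with ribosomal protein genes.

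The starts of the host genes and of the other long transcripts are printed to show this tract and its absence. Of the 10 genes, 8 had an entry in the RefSeq promoter table of GRCm38.p6, and H19 and Snhg6 did not. Each line gives 20 bases before the annotated start and 40 from it, and capitals mark a C followed by at least 4 C or T that begins at the start or within 5 bases of it. Meg3 and Gas5 had more than 1 annotated start, and the one nearest such a tract is shown.
Gas5 (chr1:161035146-161035205, plus strand): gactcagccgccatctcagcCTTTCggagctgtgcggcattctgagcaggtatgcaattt
Snhg8 (chr3:123508297-123508356, minus strand): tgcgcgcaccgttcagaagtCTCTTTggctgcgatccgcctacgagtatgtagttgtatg
Snhg12 (chr4:132308658-132308717, plus strand): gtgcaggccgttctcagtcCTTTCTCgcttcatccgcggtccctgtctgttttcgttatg
Snhg3 (chr4:132353647-132353706, minus strand): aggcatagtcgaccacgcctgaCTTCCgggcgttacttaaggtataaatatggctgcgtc
Meg3 (chr12:109540976-109541035, plus strand): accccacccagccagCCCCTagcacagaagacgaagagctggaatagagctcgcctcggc
Snhg1 (chr19:8723467-8723526, plus strand): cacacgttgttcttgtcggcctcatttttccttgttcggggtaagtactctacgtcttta
Tug1 (chr11:3648775-3648834, minus strand): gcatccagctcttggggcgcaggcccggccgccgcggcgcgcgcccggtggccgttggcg
Kcnq1ot1 (chr7:143296508-143296567, minus strand): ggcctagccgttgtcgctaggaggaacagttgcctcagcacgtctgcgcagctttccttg

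The tract began exactly at the annotated start in 2 genes, Gas5 and Snhg8, compared with 2.51% of the 32851 promoters in the table and 17.8% of the 73 promoters of ribosomal protein (Rpl and Rps) genes. Within 5 bases of the start it was present in 5 of the 8 genes, Gas5, Snhg8, Snhg12, Snhg3 and Meg3, beside 18.3% of all promoters and 42.5% of Rpl and Rps promoters. A gene was counted if any of its annotated starts matched, whereas the shares are per promoter entry, so the 2 are not strictly alike. The tract of Meg3 began 5 bases before the annotated start and ended before it, so it lies outside the annotated transcript. Gas5 and Meg3 each had another annotated start without the tract within 5 bases. The motif was read on the transcribed strand only. These matches describe the letters at the annotated starts, and the position of transcription initiation in C3H10 cells was not measured.

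In GENCODE M21, 25 snoRNA genes lie within 6 of the hosts on the same strand. Gas5 holds 9, Snhg1 holds 8, Snhg12 holds 4, Snhg3 holds 2, and Snhg6 and Snhg8 hold 1 each. The 10 that had their own row in the table are the only small RNAs of these hosts with a value, and the following are shown because they had the most counts or the largest difference. Capitals mark the C box (TGATGA) and D box (CTGA) of a box C/D snoRNA, or the ACA that lies 3 bases from the end of a box H/ACA snoRNA. Sequences are from GENCODE M21 on GRCm38.
Snora73a (in Snhg3, chr4:132352775-132352979, minus strand): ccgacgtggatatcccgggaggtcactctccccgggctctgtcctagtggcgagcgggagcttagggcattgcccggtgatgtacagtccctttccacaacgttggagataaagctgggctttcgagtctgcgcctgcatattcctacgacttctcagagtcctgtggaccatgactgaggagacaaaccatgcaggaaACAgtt
Snora73b (in Snhg3, chr4:132352322-132352526, minus strand): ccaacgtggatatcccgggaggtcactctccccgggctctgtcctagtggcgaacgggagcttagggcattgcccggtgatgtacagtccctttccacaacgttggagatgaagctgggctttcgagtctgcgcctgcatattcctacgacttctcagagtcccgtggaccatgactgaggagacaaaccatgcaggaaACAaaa
Snord22 (in Snhg1, chr19:8725866-8725991, plus strand): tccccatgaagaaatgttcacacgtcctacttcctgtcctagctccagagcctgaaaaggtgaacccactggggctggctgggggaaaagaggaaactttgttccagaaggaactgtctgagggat
Snora44 (in Snhg12, chr4:132309941-132310069, plus strand): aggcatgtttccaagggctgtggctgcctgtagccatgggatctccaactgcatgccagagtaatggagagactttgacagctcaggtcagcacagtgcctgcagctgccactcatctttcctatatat
Snora61 (in Snhg12, chr4:132310240-132310369, plus strand): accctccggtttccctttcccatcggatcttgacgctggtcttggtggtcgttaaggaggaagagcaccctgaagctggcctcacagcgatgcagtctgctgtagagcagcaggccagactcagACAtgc
Snord99 (in Snhg12, chr4:132310691-132310764, plus strand): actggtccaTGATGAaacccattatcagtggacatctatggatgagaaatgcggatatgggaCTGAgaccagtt

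The C and D boxes were found together in 20.6% of 1507 annotated mouse snoRNAs, and the terminal ACA in 18.05%. Neither was found by this search in Snord22 or Snora44, which had no match to these exact letters. Snora73a and Snora73b differed at 7 of 205 positions, an identity of 96.6%, so the division of reads between them is uncertain.

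Total counts were 58147539 over 21111 genes for ASO NC and 61653549 over 21143 genes for ASO MALAT1. Malat1, the target, had 170402 counts in the ASO NC library and 45396 in the ASO MALAT1 library, 24.7% of the control level after scaling. The markers of the labelled cell type differed between the libraries as well. All 7 adipocyte markers measured were lower in the ASO MALAT1 library (median log2 fold change -1.23), with 315381 summed counts in the control library and 136562 in the knockdown library. The 5 preadipocyte and fibroblast markers tested were all higher (median 0.32, 77368 and 98176 summed counts), while Dlk1 had 0 counts in both. The 2 chondrocyte markers tested were also higher, with 6570 and 10050 counts for Sox9. Markers of endothelium, skeletal muscle and bone were at or near 0, and of the macrophage markers Ptprc and Adgre1 had 0 counts while Cd68 was lower (172 and 119 counts, -0.64). In bulk RNA, fewer cells of a type and less RNA per cell cannot be told apart. The part of this shift in the values of the noncoding RNAs was not tested.

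None of the 10 noncoding RNAs differed 2-fold between the ASO NC and ASO MALAT1 libraries. At an adjusted p under 0.05 and a fold change of at least 2, 0 of 10 were called, beside 6.28% of all tested genes. Because large differences were more common among genes with few counts, the closer backgrounds are 3.42% of genes with a mean of 100 to under 1000 counts and 0.751% of genes with a mean of 1000 or more. For H19, with a mean under 100 counts, the matching share is 17.2%. At a 1.5-fold threshold 0 of 10 were called as well, beside 11.6% of all tested genes. The 95% counting interval lay within 2-fold of no difference for all 10 and within 1.5-fold for 8, the exceptions being the sparsely counted H19 and Snhg6. The median log2 fold change was -0.04, and that of all tested genes was -0.0029.

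Without a fold threshold, 4 of the 10 passed in the exact binomial test at a Benjamini-Hochberg adjusted p under 0.05 over all tested genes. Gas5 and Tug1 were higher in the ASO MALAT1 library, and Kcnq1ot1 and Snhg12 were lower. On this criterion 24.2% of all tested genes were higher, 23.8% were lower and 48.1% differed in either direction. The share that passed rose with counts, so this pooled background is not matched. The 4 that passed were all among the 5 with a mean of 1000 or more counts, where 65.3% of tested genes passed. None of the 4 RNAs with a mean of 100 to under 1000 passed, beside 45.5% of genes. H19, with a mean under 100, did not pass either, beside 22.8%. The exact binomial test does not include variation between cultures. In edgeR's exact test this variation was preset, with its coefficient of variation set to 0.1, 0.2 or 0.4. At each setting 0 of the 10 passed at an adjusted p under 0.05, and 0 had an unadjusted p under 0.05. At the same adjusted p without a fold threshold, 1079, 117 and 1 of the 17356 tested genes passed, in that order. With so few genes passing, 0 of 10 at the adjusted p says little about these RNAs.

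**Figure D1:**
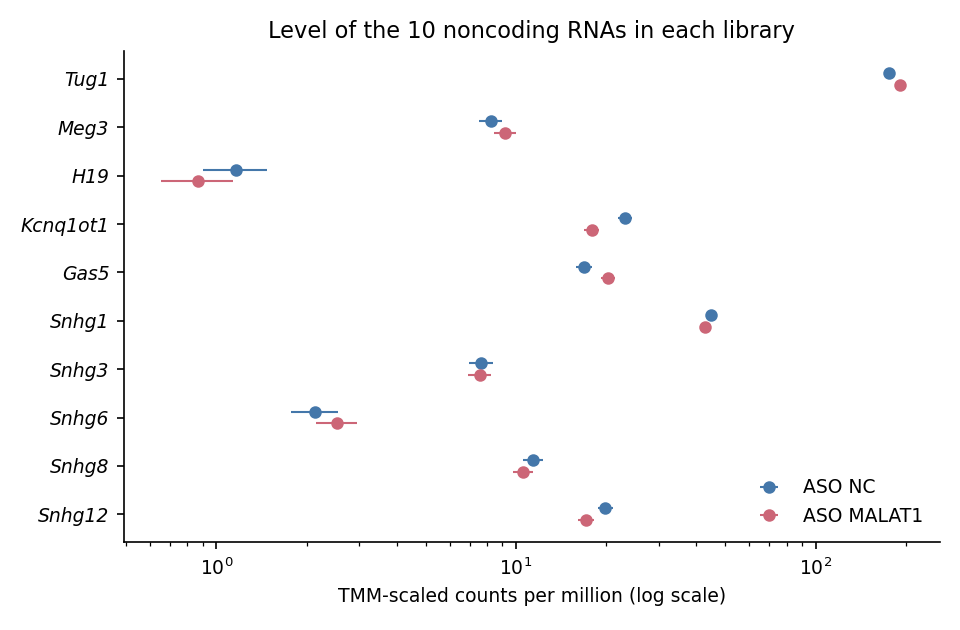
Level of each noncoding RNA in the ASO NC and ASO MALAT1 libraries, in TMM-scaled CPM on a log axis, with 1 point for each library and 95% counting intervals. Tug1 was the highest at 175 and 192, H19 the lowest at 1.16 and 0.869, and the points of each gene lie close together compared with the differences between genes.

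Kcnq1ot1 had the most negative difference of the genes that passed. This unspliced antisense transcript is expressed from the paternal chromosome and silences neighbouring imprinted genes in cis. It had 1336 counts in the ASO NC library and 1112 in the ASO MALAT1 library, or 23.2 and 17.9 scaled CPM, which are counts relative to the TMM-scaled library size. The knockdown level was 77.3% of control, with a log2 fold change of -0.37 (95% interval -0.49 to -0.26, Benjamini-Hochberg adjusted p = 1.52e-09, exact binomial test). Among genes with a mean of 1000 or more counts, 10.8% differed by more than this in either direction. Kcnq1, within which it lies, had 1 count in the control library and 0 in the knockdown library, and Cdkn1c had 0 in both. Other coding genes of the domain are described with the imprinted genes.

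Gas5 had the largest positive difference. It is a snoRNA host with a 5′TOP start, known for accumulating when growth stops and translation is slowed, and its spliced RNA can bind the glucocorticoid receptor. Its counts were 974 and 1262 (16.9 and 20.3 scaled CPM), a knockdown level of 120% of control. The log2 fold change was 0.27 (0.15 to 0.39, adjusted p = 5.80e-05 in the same test), and 19.5% of genes in its count class differed by more.

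Tug1, a long noncoding RNA first described in the retina and linked to Polycomb repression, was the most counted of the 10. It had 10115 counts in the ASO NC library and 11919 in the ASO MALAT1 library, 56.4% and 59.8% of the counts of all 10 genes. Its log2 fold change was 0.13 (0.09 to 0.17), a difference of 9.44%, and the adjusted p was 1.69e-10 by Benjamini-Hochberg adjustment of the exact binomial test. The small p came with a small difference, since 46.7% of genes with a mean of at least 1000 counts differed by more.

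Snhg12, the host of Snora16a, Snora44, Snora61 and Snord99, had 1146 and 1062 counts (19.9 and 17.1 scaled CPM), 86.1% of control. Its log2 fold change was -0.22 (-0.34 to -0.09, Benjamini-Hochberg adjusted p = 0.00143, exact binomial test), and 26.4% of its class differed by more.

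**Figure D2:**
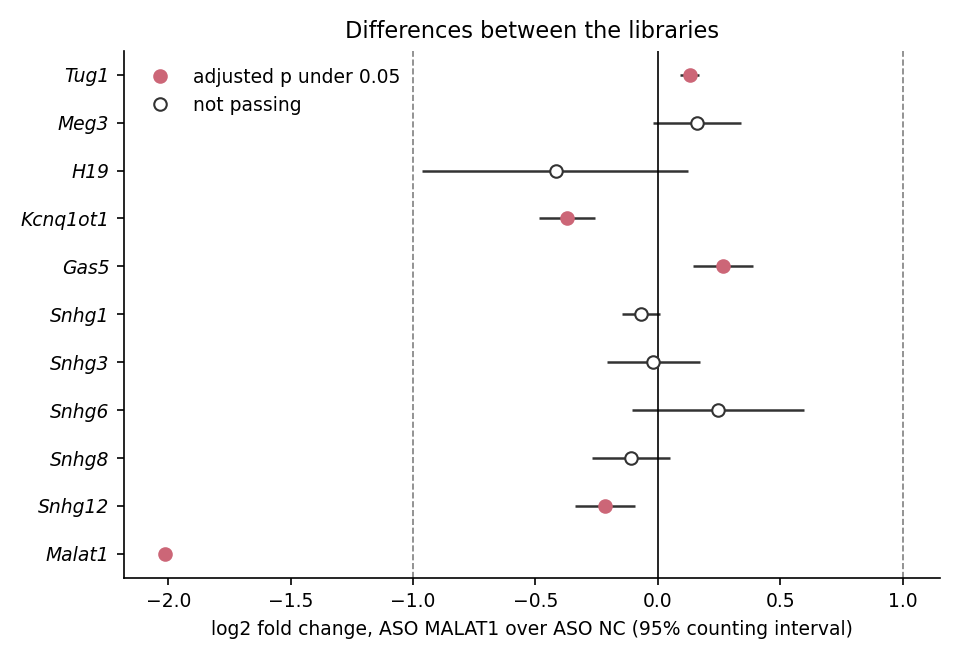
Log2 fold change of each noncoding RNA and of Malat1, ASO MALAT1 over ASO NC, with 95% counting intervals as bars, filled points for adjusted p under 0.05 and dashed lines at 2-fold. The 10 noncoding RNAs lie between -0.41 (H19) and 0.27 (Gas5), all inside the 2-fold lines, and Malat1 lies at -2.01.

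The other 6 did not pass. Meg3, a maternally expressed RNA of the Dlk1-Dio3 domain with growth-restraining activity, had 475 and 571 counts. Its log2 fold change was 0.16 (-0.02 to 0.34). H19, the maternally expressed partner of Igf2 and host of Mir675, had 67 and 54 counts, with the widest interval of the 10 (-0.96 to 0.12 around -0.41). The depth therefore leaves room for nearly a 2-fold lower level of H19, but not for a 1.5-fold higher one. The values of these imprinted RNAs had opposite signs, and both intervals included no difference.

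Of the remaining snoRNA hosts none passed. Snhg1 had 2592 and 2660 counts, and its log2 fold change was -0.07 (-0.15 to 0.01), although it was the second most counted gene of the 10. Snhg3, host of the paired Snora73 genes, had 442 and 470 counts and the smallest difference, -0.02 (-0.21 to 0.17). Its sign turned with the scaling, to 0.0041 when library totals were used. Snhg8, host of Snora24, had 656 and 655 counts (-0.11, -0.27 to 0.05). Snhg6, host of Snord87, had 123 and 157 counts (0.24, -0.10 to 0.60). Counts as deposited and scaled levels thus differ in direction for Snhg1 and Snhg3. The adjusted p of these 4 hosts lay between 0.148 and 0.936 by Benjamini-Hochberg adjustment of the exact binomial test.

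**Figure D3:**
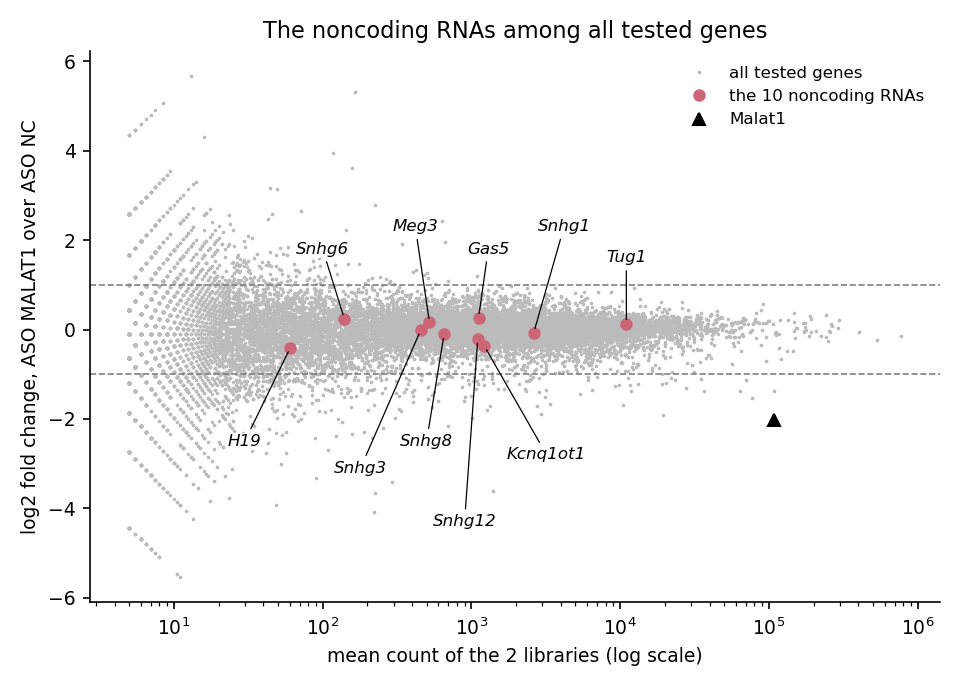
Log2 fold change of all tested genes against the mean count of the 2 libraries (log axis), with the 10 noncoding RNAs in red, Malat1 as a triangle and dashed lines at 2-fold. The 10 lie within the bulk of genes of like counts, H19 and Snhg6 on the sparser left and Tug1 on the right.

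Set among genes of like counts, none of the 5 members with fewer than 1000 counts on average lay outside the central 80% of its class. These ranges were -0.52 to 0.43 for a mean of 100 to under 1000 counts and -1.38 to 1.14 for a mean under 100. For the 5 with a mean of 1000 or more the range was -0.28 to 0.25, and Kcnq1ot1 at -0.37 and Gas5 at 0.27 lay just outside it.

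Levels of different genes were compared per kb of the longest annotated transcript. Tug1 was the highest at 26.1 scaled CPM per kb in the ASO NC library and 28.6 in the ASO MALAT1 library. Snhg1 followed with 16.5 and 15.7, Snhg8 with 14.7 and 13.6, Snhg3 with 13.2 and 13.02, and Snhg12 with 12.9 and 11.1. The counting intervals of Snhg8, Snhg3 and Snhg12 overlapped in the control library, so their order is not resolved there. Gas5 at 6.60 and 7.95 was near the median of all genes with a length, which was 5.98 and 6.10. Below it stood Snhg6 at 2.61 and 3.10, Meg3 at 0.566 and 0.632, H19 at 0.508 and 0.380, and Kcnq1ot1 at 0.249 and 0.192. Meg3 and H19 could not be ordered in the control library. The order was the same in both libraries, and by this length the imprinted RNAs took the 3 lowest places.

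The description of these RNAs as abundant fits some of them only. By counts, Tug1 exceeded 94.1% of tested genes and Snhg1 71.1%, whereas H19 exceeded 25.7% and Snhg6 32.7%. Kcnq1ot1 exceeded 55.6% by counts, but 13.3% per kb, since its transcript spans 93092 bases. Together the 10 made up 0.0308% of all counts for ASO NC and 0.0323% for ASO MALAT1. The order also depends on which transcript length is used. With the median annotated transcript Snhg1 stood first at 74.6 scaled CPM per kb in the control library, followed by Tug1 at 64.2 and Gas5 at 26.8. Meg3 then stood at 10.3, above Snhg6 at 3.81, so that the imprinted RNAs no longer held the 3 lowest places. The annotation gives Gas5 25 transcripts with a median of 629 bases and a longest of 2556.

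The snoRNAs inside the hosts had few counts. Of the 10 with a row, 9 had at least 10 counts over both libraries, and their sum was 308 in the ASO NC library and 353 in the ASO MALAT1 library. The adjusted p of 1 was under 0.05, beside 22.8% of tested genes with a mean under 100 counts. This was Snora44, a box H/ACA snoRNA by name that guides pseudouridylation, within Snhg12. It had 18 counts in the control and 5 in the knockdown library, a log2 fold change of -1.85 (-3.74 to -0.47, Benjamini-Hochberg adjusted p = 0.0154, exact binomial test). With a coefficient of variation of 0.1 in edgeR's exact test its adjusted p was 0.113.

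The other snoRNAs of Snhg12 had values on the opposite side without passing the test. Snora61 had 12 and 23 counts (0.81, -0.23 to 1.97), Snord99 had 3 and 12 (1.74, 0.0038 to 4.36) and Snora16a had 10 and 17 (0.63, -0.55 to 1.95). Summed over its 4 snoRNAs, Snhg12 gave 43 and 57 counts, a log2 fold change of 0.30 (-0.30 to 0.91), against -0.22 for the host row. The interval of the sum includes the value of the host. Within Snhg12, Snora44 alone passed the adjusted p, and the values of the other 3 lay on the other side of no difference.

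Snora73a and Snora73b, the snoRNAs known for a role in the processing of ribosomal RNA, had 93 and 86 counts and 73 and 77 counts. Their sum was 166 in the control library and 163 in the knockdown library (-0.13, -0.45 to 0.19), and the host Snhg3 was likewise close to no difference. Snord22 of Snhg1 had 85 and 118 counts (0.36, -0.05 to 0.79) while its host stood at -0.07. Snord47 of Gas5 had 6 and 7 counts and Snord87 of Snhg6 had 8 and 8, too few to resolve a 2-fold difference. Snora24 of Snhg8 had 0 counts in both libraries, which allows up to 3 counts in each. The microRNA rows Mir1906-1 and Mir770 within Meg3 and Mir675 within H19 were also at 0 in both. Apart from Snora73b and Snord87, every snoRNA with a row overlapped annotated exons of its host, so that reads of the host and of the snoRNA cannot be told apart there.

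**Figure D4:**
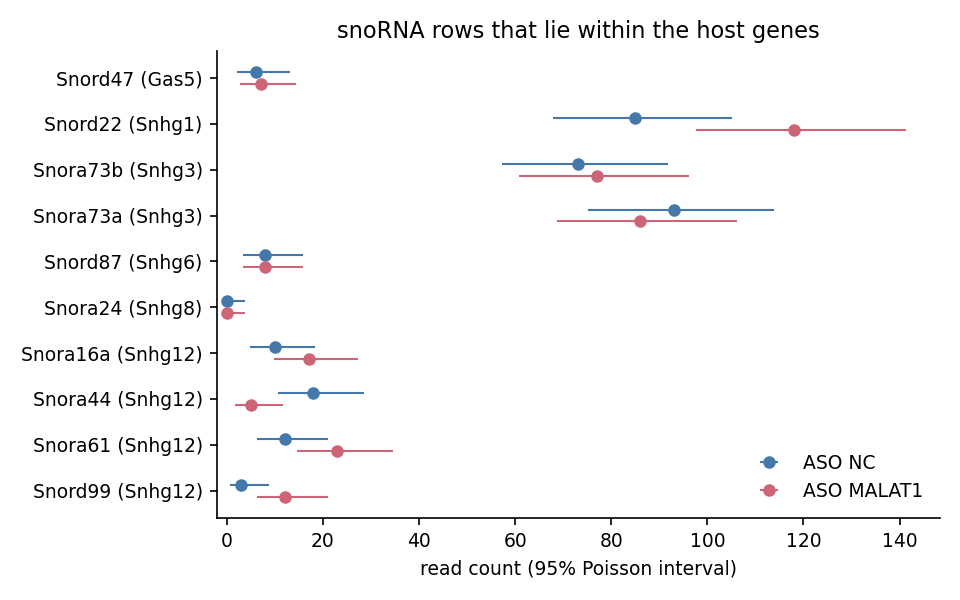
Counts of the snoRNA rows within the hosts in the ASO NC (blue) and ASO MALAT1 (red) libraries, with 95% Poisson intervals as bars. Snora73a, Snora73b and Snord22 had the most counts, Snora44 was lower in the ASO MALAT1 library (18 and 5 counts), and Snord99, Snora61 and Snora16a had more counts there.

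The loci and their surroundings were taken from GENCODE M21 on GRCm38. Tug1 lies on the minus strand at chr11:3639785-3649673 and overlaps Morc2a, on the opposite strand, in 4.96% of its exonic bases. Morc2a had 8001 and 8837 counts and a log2 fold change of 0.04, with the interval from -0.0070 to 0.08. Of the nearest coding genes that do not overlap it, Osbp2, an oxysterol-binding protein gene, had 69 and 64 counts (-0.21, -0.73 to 0.30). Smtn, a smooth muscle cytoskeletal gene farther away, was higher (0.24, Benjamini-Hochberg adjusted p = 8.77e-29, exact binomial test). Snhg3 (minus strand, chr4:132348014-132353686) shared 13.7% of its exonic bases with Rcc1 on the same strand and 71.5% with the noncoding Gm17300 on the other, so its counts are uncertain. Rcc1, the nuclear exchange factor of Ran, had 1225 and 1429 counts (0.12, 0.0046 to 0.23). The library kit kept strand, but whether the counting used it is not given in the sources used here.

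Snhg12 (plus strand, chr4:132308623-132311024) lies 739 bases from Trnau1ap, a selenocysteine tRNA factor transcribed on the opposite strand. Trnau1ap was lower like the host, with 1443 and 1399 counts and a log2 fold change of -0.15 (-0.26 to -0.04). Snhg1 (plus strand, chr19:8723475-8726443) lies 106 bases from Slc3a2, which encodes an amino acid transporter subunit. Slc3a2 was lower, from 12996 to 12507 counts (-0.16, -0.20 to -0.13). Gas5 (plus strand, chr1:161034422-161038539) overlaps the span of Zbtb37 without sharing exons. Zbtb37 stood at 0.02 (-0.09 to 0.13), an interval that includes no difference, while Gas5 was higher.

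Snhg8 (minus strand, chr3:123507552-123508404) had sparse neighbours. Ndst3, a heparan sulfate sulfotransferase gene, had 27 and 58 counts and a log2 fold change of 0.98 (0.31 to 1.71, Benjamini-Hochberg adjusted p = 0.00830, exact binomial test), just short of 2-fold. Prss12 had 87 and 107 counts (0.19). Snhg6 (minus strand, chr1:9941959-9944118) shared 11.1% of its exonic bases with Mcmdc2 on the opposite strand, which had 0 counts in both libraries.

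For the imprinted RNAs the surrounding domain gave a second reading. Meg3 lies on the plus strand at chr12:109541001-109571726, followed by the maternally expressed Rian and Mirg. Rian had 545 and 510 counts (-0.20, -0.38 to -0.03), and Mirg had 348 and 301 (-0.32, -0.54 to -0.09), so both stood on the other side of no difference from Meg3 (0.16). Mirg passed the adjusted p (0.0147 by Benjamini-Hochberg adjustment of the exact binomial test) and Rian did not (0.0511). The paternally expressed Dlk1 and Rtl1 had 0 counts in both libraries. H19 lies on the minus strand at chr7:142575529-142578143. Igf2, which shares its enhancers, had 131 and 118 counts (-0.26, -0.63 to 0.11), a value with the same sign as that of H19 and likewise not passing. Kcnq1ot1 lies on the minus strand at chr7:143203458-143296549 within Kcnq1.

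Across the 11 of 21 imprinted genes near Meg3, H19 and Kcnq1ot1 that were tested, 2 were higher and 4 lower at an adjusted p under 0.05, and 5 did not pass, with a median of -0.11. The share that passed was near the 48.1% of all tested genes. Higher were Slc22a18 (0.46), an organic cation transporter, and Tssc4 (0.18). Lower were Tnfrsf22 (-0.56) and Tnfrsf23 (-0.30), decoy receptors for the ligand TRAIL, with Mirg and the nucleosome assembly gene Nap1l4 (-0.11). The wider imprinted gene network has members that are co-regulated in growth, and it shares Igf2 with the former list. Of its 11 tested genes 4 were higher and 2 lower, beside 24.2% and 23.8% of all tested genes, with a median of 0.08. Decorin (Dcn), a collagen-binding proteoglycan, had the largest difference, with 2247 and 1315 counts (-0.88, -0.98 to -0.78). Mest, a gene known for rising with fat mass expansion, was at -0.44. Plagl1, a transcription factor of the network, was at 0.48 (110 and 165 counts).

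Other noncoding hosts of small RNAs gave a median of -0.16, below that of the 6 snoRNA hosts among the 10 genes (-0.04). Of 14 tested, which include the microRNA hosts Mir22hg and Mir17hg, 4 were lower, 0 were higher, and 10 did not pass at an adjusted p under 0.05. These were Snhg7 (474 and 361 counts, -0.50), Snhg20 (448 and 363, -0.41), Zfas1 (2495 and 2195, -0.29) and Snhg17 (1711 and 1641, -0.17). Mir17hg, the host of the miR-17-92 cluster, had the highest value at 0.40 (100 and 142 counts) without passing. With Snhg12 and Gas5 included, 5 of 20 hosts were lower and 1 was higher, beside 23.8% and 24.2% of all tested genes. None of the 20 reached 2-fold.

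Among 22 other long noncoding genes, 5 were higher and 7 lower, with a median of -0.07, and 1 was called. These counts were near the shares of all tested genes, 24.2%, 23.8% and 6.28%. Neat1, the scaffold of paraspeckles and chromosomal neighbour of Malat1, had 163466 and 126386 counts (-0.48). Trp53cor1, a p53-induced transcript also known as lincRNA-p21, was lower at -0.54 and the nuclear repeat RNA Firre at -0.32. Fendrr (0.42), Ftx (0.33) and Dnm3os (8624 and 10789 counts, 0.22), a mesenchymal transcript that hosts microRNAs, were among the higher ones. The gene called was Rpph1, the RNA of ribonuclease P, at 2 and 20 counts (2.94, 1.17 to 6.36).

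The mRNAs of proteins that bind or turn over these RNAs mostly differed little. All values here are mRNA counts, and no protein was measured. Of the mRNAs of 20 snoRNA particle proteins, assembly factors and related nucleolar proteins, 8 were higher and 2 lower, with a median of 0.07 and 0 called. Of all tested genes 24.2% were higher, 23.8% lower, 48.1% passed in either direction and 6.28% were called. Most of these 20 had a mean of 1000 or more counts, a class in which 65.3% of genes passed and 0.751% were called. The box C/D core protein Nop58 stood at 0.20, the assembly ATPase Ruvbl1 at 0.24 and the box C/D methyltransferase Fbl at 0.07 without passing. Of the mRNAs of box H/ACA core proteins, Nhp2 (-0.18) and Nop10 (-0.14) were lower, while Gar1 (0.08) and Dkc1 (-0.03) did not pass. Nhp2l1, which binds the kink turn of box C/D snoRNAs, stood at 0.29. Of the mRNAs of 19 nonsense-mediated decay factors, 6 were higher and 5 lower, beside 24.2% and 23.8% of all tested genes, with a median of 0.0034. Most of these 19 also had a mean of 1000 or more counts, the class in which 65.3% of genes passed. The central helicase Upf1 had 6935 and 7484 counts (0.0034, -0.04 to 0.05). Only Smg8, a subunit of the kinase that phosphorylates Upf1, was called, at 26 and 4 counts (-2.66, -4.79 to -1.28). Over all tested genes 6.28% were called, and 17.2% of those with a mean under 100 counts. Of 21 mRNAs with a 5′TOP start other than those of ribosomal proteins, 7 were higher, 11 were lower, 3 did not pass and 0 were called (median -0.03). All had more than 1000 counts in each library. The share that passed was above the 48.1% of all tested genes and the 65.3% of genes with a mean of 1000 or more counts. Neither background is matched in depth, because many of these mRNAs had far more counts, up to 394216 and 408578 for Eef1a1. At such depth small differences pass, so the share is not a result about 5′TOP mRNAs. The ends of the range of these mRNAs were Nap1l1 (0.32) and Hnrnpa1 (0.24) against Tpt1 (-0.16) and Pabpc1 (-0.16). Gas5 at 0.27 and Snhg8 at -0.11, the hosts with the tract at the start, lay within it. Of these mRNAs only Nap1l1 stood above Gas5.

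**Figure D5:**
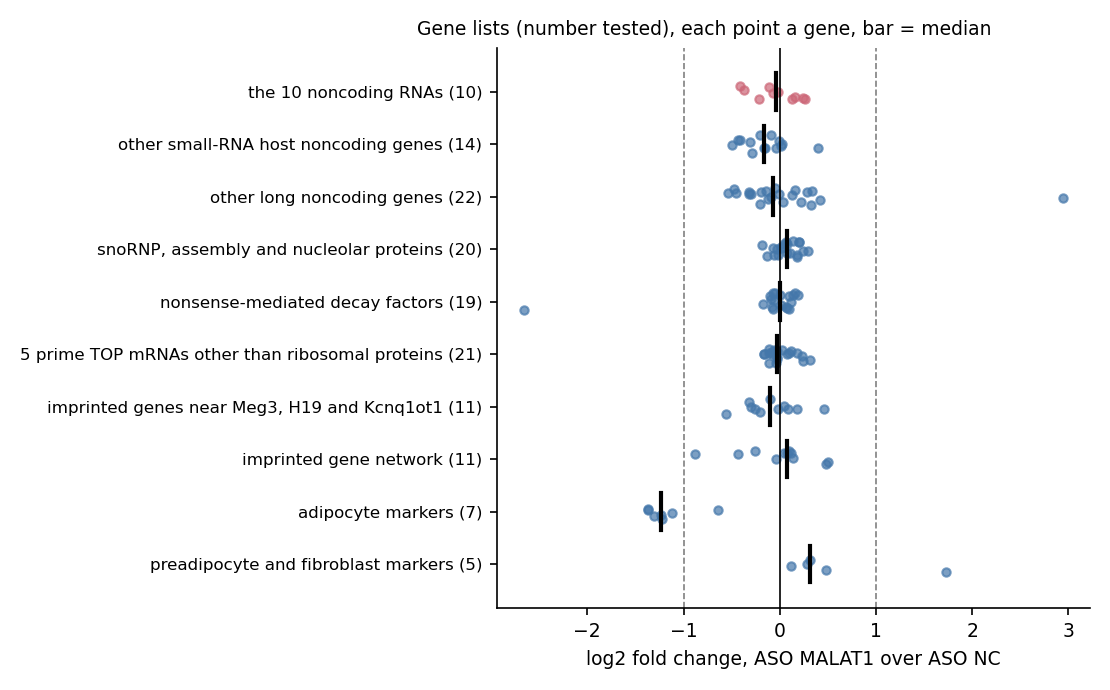
Log2 fold change, ASO MALAT1 over ASO NC, of the 10 noncoding RNAs and of related gene lists, with each point a tested gene, bars at the medians and dashed lines at 2-fold. Points of the noncoding, snoRNA particle, decay and imprinted lists lie within the 2-fold lines apart from Rpph1 and Smg8, with Dcn nearest the lower line at -0.88, and the adipocyte markers have a median of -1.23.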

How the data were processed

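RNA-seq libraries were prepared from rRNA-depleted total RNA of C3H10 cells with a directional kit, 1 library per group. The authors deposited counts of reads per gene symbol without normalization. HISAT2 and GRCm38 are named in the submitters' processing notes, while the counting tool, annotation, strand setting and treatment of multi-mapping reads are not given in the sources used here. Genes with at least 10 counts over both libraries were scaled with TMM factors (0.992 and 1.01, edgeR 4.0.16, R 4.3.3). Log2 fold changes used a prior count of 0.5. Because 1 library per group leaves no spread to estimate, the counts of a gene were compared by the exact binomial test (two-sided, given the scaled library sizes; Python 3.11.15, scipy 1.17.1) with p adjusted by Benjamini-Hochberg. Intervals at 95% are by the Clopper-Pearson method. Calls needed an adjusted p under 0.05 and 2-fold. The script was tested on simulated data. Promoter starts were from RefSeq GRCm38.p6, and loci, transcript lengths and snoRNAs from GENCODE M21, which gave a length for 88.3% of tested genes. Named genes were the 10 noncoding RNAs, snoRNAs within them, and overlapping and nearest genes. From each list they were the called genes and others picked by value or by role, so the highest and lowest were not always named. The genes and lists were chosen with earlier results of these data known.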

Additional observations from a re-analysis of the deposited data

How the results depend on the processing

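With library totals, DESeq2 size factors (DESeq2 1.42.0), upper-quartile factors, a filter of 1 count over both libraries or of 10 counts in each, or a lower or a higher prior count, 69 of 70 fold changes of the 10 noncoding RNAs kept their direction and side of the threshold. The exception was Snhg3, at 0.0041 with library totals. The median of all tested genes ranged from -0.01 to 0.02 under these settings. Of the 10 noncoding RNAs, 4 were called by adjusted p alone. The number of all tested genes called, 1090, became 561 with 10 counts in each library, 2019 at 1.5-fold and 8346 by adjusted p alone. In edgeR's exact test with 2-fold it was 667, 117 and 1 at a coefficient of variation of 0.1, 0.2 and 0.4. With 10 counts in each library, 0 other long noncoding genes and 0 nonsense-mediated decay factors were called, because that filter leaves out Rpph1 and Smg8. Chosen after seeing the data, a motif window of 5 bases gave 5 genes in place of 2, and median transcript lengths moved the levels per kb of 9 of the 10. No paired analysis was possible because each group held 1 library. With few counts, as for H19, Snhg6 and the snoRNAs, depth limits what can be resolved, and for all genes the absence of replicate cultures leaves their variation unknown.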
